A study of Mus musculus with 6 samples.

Results

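Club cells were compared directly with basal cells of the mouse airway surface epithelium. The comparison rests on 4 microarrays, 2 of each cell type, out of the 6 of the study, and covers all 20315 named genes of the authors' per-gene table, none of them picked by its values. The other 2 arrays hold ciliated cells and served here only to estimate how much each gene varies between replicates. All arrays carry RNA of untreated primary cells from C57BL/6 mice, without a genetic change named in the labels. The cells were sorted by flow cytometry, and every gate asked for EpCAM. Basal cells bound in addition the lectin GSIβ4. Club cells, which the sorting scheme calls secretory, carried the carbohydrate SSEA1, and ciliated cells were free of GSIβ4 and positive for CD24. As described, the club gate did not ask for a lack of GSIβ4, and the basal gate did not ask for a lack of SSEA1. No age, sex or number of animals per array was found in the labels. They speak of biological replicates without naming animals, so the p-values measure the spread between these samples. How far that spread reflects differences between animals is not known.

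Basal cells sit on the basement membrane of the airway, hold the epithelium to it and act as its stem cells. Club cells reach the lumen, secrete the proteins of the airway lining fluid, metabolise inhaled chemicals and can arise from basal cells. In the airway, Notch ligands on one cell that engage Notch receptors on its neighbour are known to favour the secretory over the ciliated fate.

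Levels are given on the authors' RMA log2 scale, on which 1 unit is a 2-fold difference, always with replicate 1 before replicate 2. A difference is the mean of the club arrays minus that of the basal arrays, with its standard error (SE), from a limma fit over all genes and all 6 arrays. A gene was called at an adjusted p under 0.05, and "rose" or "fell" stands below for called higher or called lower in club cells. Of the 20315 genes, 1629 were called (8.02%), 884 higher in club cells (4.35%) and 745 lower (3.67%). Without multiple-test adjustment, 4392 genes had a p under 0.05. A difference of at least 2-fold was present in 641 genes that rose and 490 that fell, at least 8-fold in 54 and 40, and at least 32-fold in 3 and 1. The share of genes called moved with the signal: it was 0.344% among 2904 genes with a mean below 5, 6.62% between 6 and 7, and 15.9% between 11 and 12. In the highest class, above 12, 26 genes rose and 2 fell.

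The arrays were not equally alike. Over the genes, no independent replicates themselves, Pearson's r was 0.975 for the basal pair, 0.987 for the club pair and 0.936 to 0.953 for a basal with a club array. The basal arrays differed by more than 1 unit in 613 genes and the club arrays in 193. Club replicate 2 stood apart in Xist, the RNA that coats an inactive X chromosome, at 10.57 against 5.49 to 5.68 in the other 3 arrays, while the Y-linked Ddx3y lay between 7.50 and 9.03 in all 4. Club replicate 1 stood apart in the albumin gene Alb, at 10.48 against 5.22 to 6.59, and in Gnat3, a G protein subunit of tuft and taste cells, at 9.18 against 6.87 to 7.48. Basal replicate 2 was low in genes induced by stress and growth stimuli: Nr4a3 was at 6.80 there and at 10.05 in basal replicate 1, and Egr3 at 7.56 and 9.77. The basal array nearer to the club mean was replicate 1 in 55.1% of the genes that rose and in 52.6% of those that fell. Calls that ended without a single array and larger shifts of list counts are given with the results, though not every shift of a small count, and "without either club array" means that each of them in turn was left out. With either club array left out, fewer genes passed in all, 783 without replicate 1 and 820 without replicate 2, against 1425 without basal replicate 2 and 2534 without basal replicate 1.

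The labels were set against defining markers. Krt5, a keratin of basal cells, was at 12.94 and 13.24 in the basal arrays and at 8.89 and 9.27 in the club arrays. Trp63, the transcription factor that maintains basal cells, was at 10.96 and 10.91 against 7.25 and 7.03. Scgb3a2, a secretoglobin of club cells, was at 11.69 and 11.36 in the club arrays and at 9.79 and 9.90 in the basal arrays. These 3 genes separated the cell types in the labelled direction, with no overlap of arrays; over all genes, the arrays of the 2 cell types did not overlap in 51.4%. Scgb1a1, the uteroglobin that defines club cells, was at 14.31 and 13.98 against 13.05 and 13.02, so its signal was high in the basal arrays too. Its difference of 1.11 ± 0.19 (SE) passed (adjusted p = 0.012) and no longer did without club replicate 1 (0.95, adjusted p = 0.09) or after cyclic loess normalization (0.74, adjusted p = 0.076). Of 17 club cell markers 12 rose and 5 were not called (median 1.19). They averaged 13.05 and 13.13 in the club and 11.22 and 11.71 in the basal arrays, where none lay under the array median. In the basal arrays the log2 of their summed linear signal was 16.63 and 16.74, against 15.98 and 16.05 for 18 basal cell markers. The part of club cells in the basal arrays was not tested. In RNA from sorted populations, fewer cells of a type and less RNA per cell cannot be told apart, and this holds for every gene below.

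**Figure D1:**
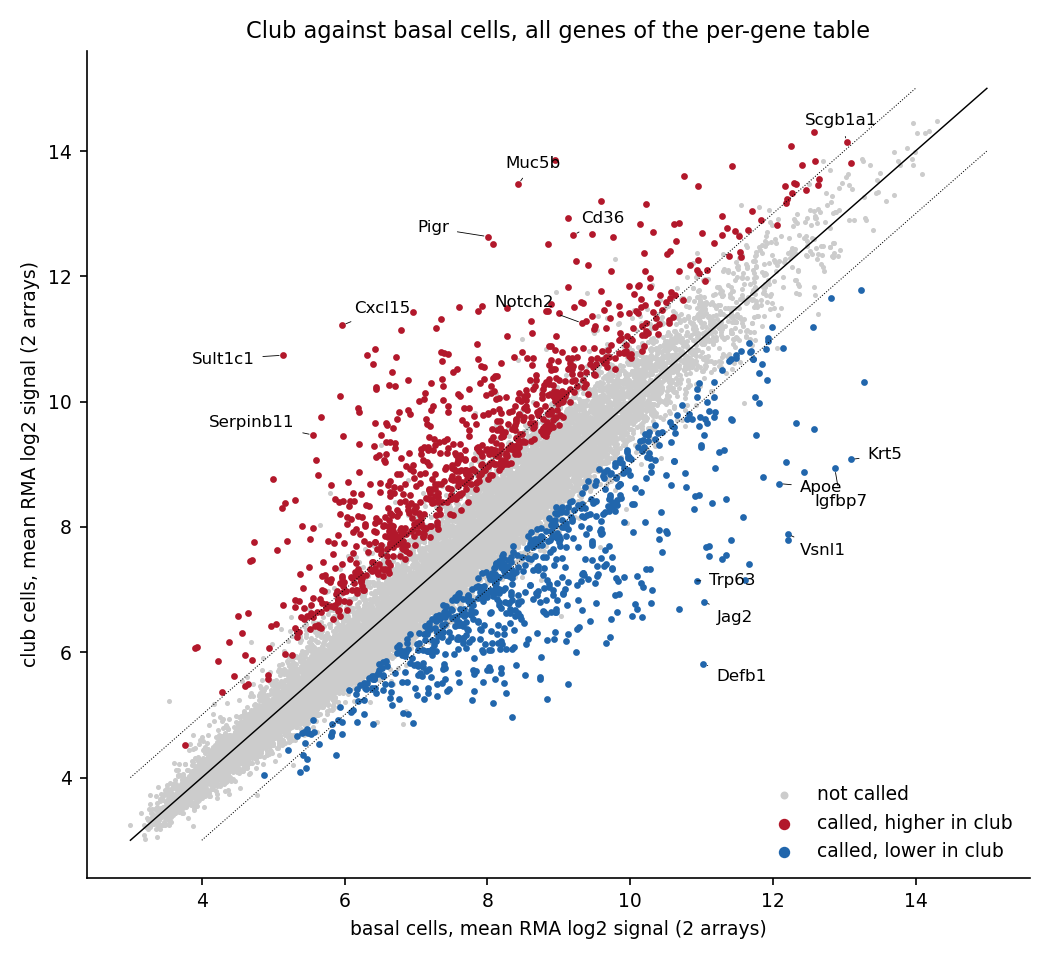
Mean RMA log2 signal of each of the 20315 genes in basal (horizontal axis) and club cells (vertical axis), 2 arrays each; red points rose, blue points fell, grey points were not called, and dotted lines mark a 2-fold difference. Sult1c1, Cxcl15 and Muc5b lie farthest above the diagonal among the labelled genes and Defb1 farthest below it.

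Among the 25 largest differences in each direction were genes of varied function. Sult1c1, a cytosolic sulfotransferase, was at 10.69 and 10.80 in club cells and at 4.77 and 5.52 in basal cells. Cxcl15, a neutrophil chemokine of mouse lung epithelium, was at 11.29 and 11.14 against 6.34 and 5.59. Atp13a5, a P-type transport ATPase, was at 10.72 and 10.77 against 6.32 in both basal arrays. All 3 lay in separate ranges, and their differences were 5.60 ± 0.25, 5.25 ± 0.34 and 4.42 ± 0.15 (adjusted p at most 0.000245). In the other direction Ccdc3, which encodes a secreted coiled-coil protein, was at 11.79 and 11.43 in basal and at 7.33 and 6.99 in club cells. Vsnl1, a calcium sensor best known from neurons, was at 12.53 and 11.89 against 8.25 and 7.53. Trim29, a tripartite motif protein of squamous and basal epithelia, was at 11.39 and 11.93 against 7.16 and 7.64. These genes fell by 4.45 ± 0.25, 4.32 ± 0.41 and 4.26 ± 0.29, the highest adjusted p being 0.001.

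On the club side stood the sialyltransferase gene St8sia6 (4.41 ± 0.25), the cholecystokinin receptor gene Cckar (4.20 ± 0.42), the glutamate transporter gene Slc1a1 (3.80 ± 0.21) and the hexosamine pathway enzyme gene Gfpt2 (3.79 ± 0.30). Tmc5, Cp, the copper-binding ferroxidase of plasma, and Slc27a2, which activates very long fatty acids, were higher by 3.71 ± 0.21, 3.66 ± 0.32 and 3.63 ± 0.16. On the basal side stood Cd109 (lower, -3.64 ± 0.20), a membrane protein that binds transforming growth factor beta, the netrin receptor gene Unc5a (-3.44 ± 0.21) and the collagen-binding anthrax toxin receptor gene Antxr1 (-3.42 ± 0.26). Apoe, the lipoprotein of cholesterol transport, was at 12.16 and 12.01 in basal cells and at 8.79 and 8.59 in club cells. For each gene of this paragraph the arrays of the cell types did not overlap and the call held under every alternative tried.

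The sequences around the start of 6 of these genes are shown because they span the range met among the strongly changed genes, from promoters almost without CpG to one packed with it, and include a pair of serpin genes of chromosome 1 that moved in opposite directions. They are RefSeq sequences of the mouse build GRCm38.p6, 250 bases before to 50 after the start, 5′ to 3′ on the gene's strand; capitals mark the letters TATAAA (searched on the gene's strand) and TGANTCA, the AP-1 motif (searched on both strands). The regions are chr17:53990582-53990881 (minus strand) for Sult1c1, chr5:90794284-90794583 (plus strand) for Cxcl15, chr1:107362064-107362363 (plus strand) for Serpinb11, chr1:106860925-106861224 (plus strand) for Serpinb5, chr15:101712856-101713155 (minus strand) for Krt5 and chr12:112929446-112929745 (minus strand) for Jag2.
Sult1c1: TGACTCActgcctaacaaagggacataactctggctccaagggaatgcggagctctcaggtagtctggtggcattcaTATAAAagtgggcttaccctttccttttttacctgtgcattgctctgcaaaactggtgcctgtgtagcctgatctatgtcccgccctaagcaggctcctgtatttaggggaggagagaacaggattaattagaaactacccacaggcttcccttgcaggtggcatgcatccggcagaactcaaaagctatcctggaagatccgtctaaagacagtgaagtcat
Cxcl15: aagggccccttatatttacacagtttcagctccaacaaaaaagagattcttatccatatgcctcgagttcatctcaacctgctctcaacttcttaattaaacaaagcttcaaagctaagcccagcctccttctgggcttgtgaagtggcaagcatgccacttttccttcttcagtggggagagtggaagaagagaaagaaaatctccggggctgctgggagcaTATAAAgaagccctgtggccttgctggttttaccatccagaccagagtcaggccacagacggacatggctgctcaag
Serpinb11: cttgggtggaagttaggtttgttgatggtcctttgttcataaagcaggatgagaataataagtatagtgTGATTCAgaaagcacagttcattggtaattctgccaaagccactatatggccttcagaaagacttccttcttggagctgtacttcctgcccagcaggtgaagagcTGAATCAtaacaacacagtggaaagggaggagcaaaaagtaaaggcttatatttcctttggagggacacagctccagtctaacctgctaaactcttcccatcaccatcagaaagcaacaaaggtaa
Serpinb5: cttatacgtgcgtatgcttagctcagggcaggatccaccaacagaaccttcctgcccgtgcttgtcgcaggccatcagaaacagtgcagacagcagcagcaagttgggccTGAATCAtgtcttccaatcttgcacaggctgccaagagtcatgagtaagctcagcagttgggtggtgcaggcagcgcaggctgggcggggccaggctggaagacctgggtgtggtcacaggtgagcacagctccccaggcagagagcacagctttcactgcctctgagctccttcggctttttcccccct
Krt5: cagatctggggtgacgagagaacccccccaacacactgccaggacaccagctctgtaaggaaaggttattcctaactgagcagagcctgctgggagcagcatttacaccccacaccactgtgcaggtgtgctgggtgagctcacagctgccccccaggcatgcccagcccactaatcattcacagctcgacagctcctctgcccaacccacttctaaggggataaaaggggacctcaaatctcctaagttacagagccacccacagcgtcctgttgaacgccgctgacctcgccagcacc
Jag2: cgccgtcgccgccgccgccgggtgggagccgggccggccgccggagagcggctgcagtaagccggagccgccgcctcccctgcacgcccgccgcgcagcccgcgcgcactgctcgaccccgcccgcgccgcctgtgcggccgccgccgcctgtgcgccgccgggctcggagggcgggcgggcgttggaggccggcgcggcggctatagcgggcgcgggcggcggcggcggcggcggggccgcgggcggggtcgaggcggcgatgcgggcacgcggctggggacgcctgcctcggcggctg

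Serpinb11 rose and held no CpG and 2 AP-1 matches, which begin at -181 and -76 relative to the start. Jag2 fell and held 63 CpG in a window with 86% G and C. Cxcl15, with 3 CpG, held a TATAAA that begins at -27, and Sult1c1, with 4 CpG, held both motifs farther from it. Serpinb5, the maspin gene, was at 10.91 and 10.47 in basal and at 6.89 and 6.51 in club cells. Serpinb11, a clade B serpin of the same chromosome, was at 5.72 and 5.40 in basal and at 9.59 and 9.35 in club cells. A promoter was found for 15608 measured genes. The median CpG count was 7 for 123 genes that rose at least 4-fold, 16.5 for 104 that fell at least 4-fold and 15 over all, and 39.8%, 18.3% and 27.9% of these promoters held 5 CpG or fewer. This low count was not a trait of all genes that rose. Over all 674 of them with a promoter the median was 16, and 23.7% held 5 CpG or fewer. For all 560 that fell these values were 19 and 15.4%. The AP-1 letters occurred in 14.6% of the promoters of genes that rose at least 4-fold, in 6.73% of those that fell and in 6.91% of all promoters. TATAAA occurred in 9.76%, 7.69% and 7.89%, and AGGAAG, the core of ETS factor motifs (both strands), in 46.3%, 31.7% and 33.2%. Over all called genes the contrast was smaller: AP-1 occurred in 8.61% of promoters that rose and 7.32% that fell, AGGAAG in 37.2% and 34.5%. More motifs were searched, and their shares follow for genes at least 4-fold higher, at least 4-fold lower and all. TEAD letters occurred in 17.1%, 10.6% and 13.1%, and Grainyhead letters in 4.07%, 1.92% and 1.91%. Forkhead letters occurred in 5.69%, 4.81% and 2.97%, and sterol element letters in 1.63%, 3.85% and 1.16%. In the first 2 sets Grainyhead letters were held by only 5 and 2 genes, forkhead letters by 7 and 5. Letters of the p53 family occurred in 12.2%, 9.62% and 7.3%. NF-kappaB letters occurred in 14.6%, 11.5% and 9.24%, and ACGTG, of CREB factors, in 17.1%, 17.3% and 21.8%. A match is a string of letters and not a bound site.

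Genes that adjoin on a chromosome were looked at next, in the gene order of the RefSeq table of the same build, since the files name none. Of 18859 neighbouring pairs of measured genes, both members were called in 215, and 157 of these pairs (73%) moved in the same direction. Over all genes 8.02% were called, and of the called genes 54.3% rose and 45.7% fell. Whether neighbours shared a call or a direction more often than other genes was not tested. There were 34 runs of at least 3 called neighbours, named here after their values were seen. Trp63 stood in a run with P3h2, a collagen prolyl hydroxylase, and the tight junction gene Cldn1, and all 3 fell. Agr2 and Agr3, disulfide isomerases of mucin-producing cells, and the tetraspanin gene Tspan13 formed a run of genes that rose. Notch2 adjoined Adam30 and the lectin gene Reg4, all higher in club cells. Other runs mixed directions: Cyp2s1 fell by 2.77 ± 0.18 beside Axl, which also fell, while Cyp2b10 next to it rose by 2.23 ± 0.16. The carboxylesterase genes of another run fell together: Ces2e by 2.90 ± 0.18, Ces2f by 2.42 ± 0.19 and Ces2g by 2.14 ± 0.24. Members of such families resemble each other, and probes may read more than 1 of them. When club replicate 1 was left out the calls for Cldn1, P3h2 and Agr3 ended (adjusted p = 0.065, 0.053 and 0.089), and without club replicate 2 those for P3h2 and Agr3 did (0.08 and 0.074).

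The gene lists that follow are described by how many of their measured members rose, fell or were not called, and by the median difference, beside -0.06 over all genes, of which 4.35% rose and 3.67% fell. With a ciliated array left out, 1050 genes were called in all, and the list counts below fell by over 1.5 times to 4 luminal transcription factors, 3 interferon-stimulated genes, 3 antioxidant genes, 5 ABC transporters and 4 serine proteases that rose, and to 6 guidance, 4 contractile and 1 DNA replication gene that fell. With basal replicate 1 left out, counts grew to 8 vesicle fusion genes, 5 cell cycle inhibitors and 3 guidance genes that rose and to 5 aldehyde dehydrogenase and retinoid genes that fell. The named members of a list are mostly the 6 with the largest differences, and others were chosen after their values were seen.

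**Figure D2:**
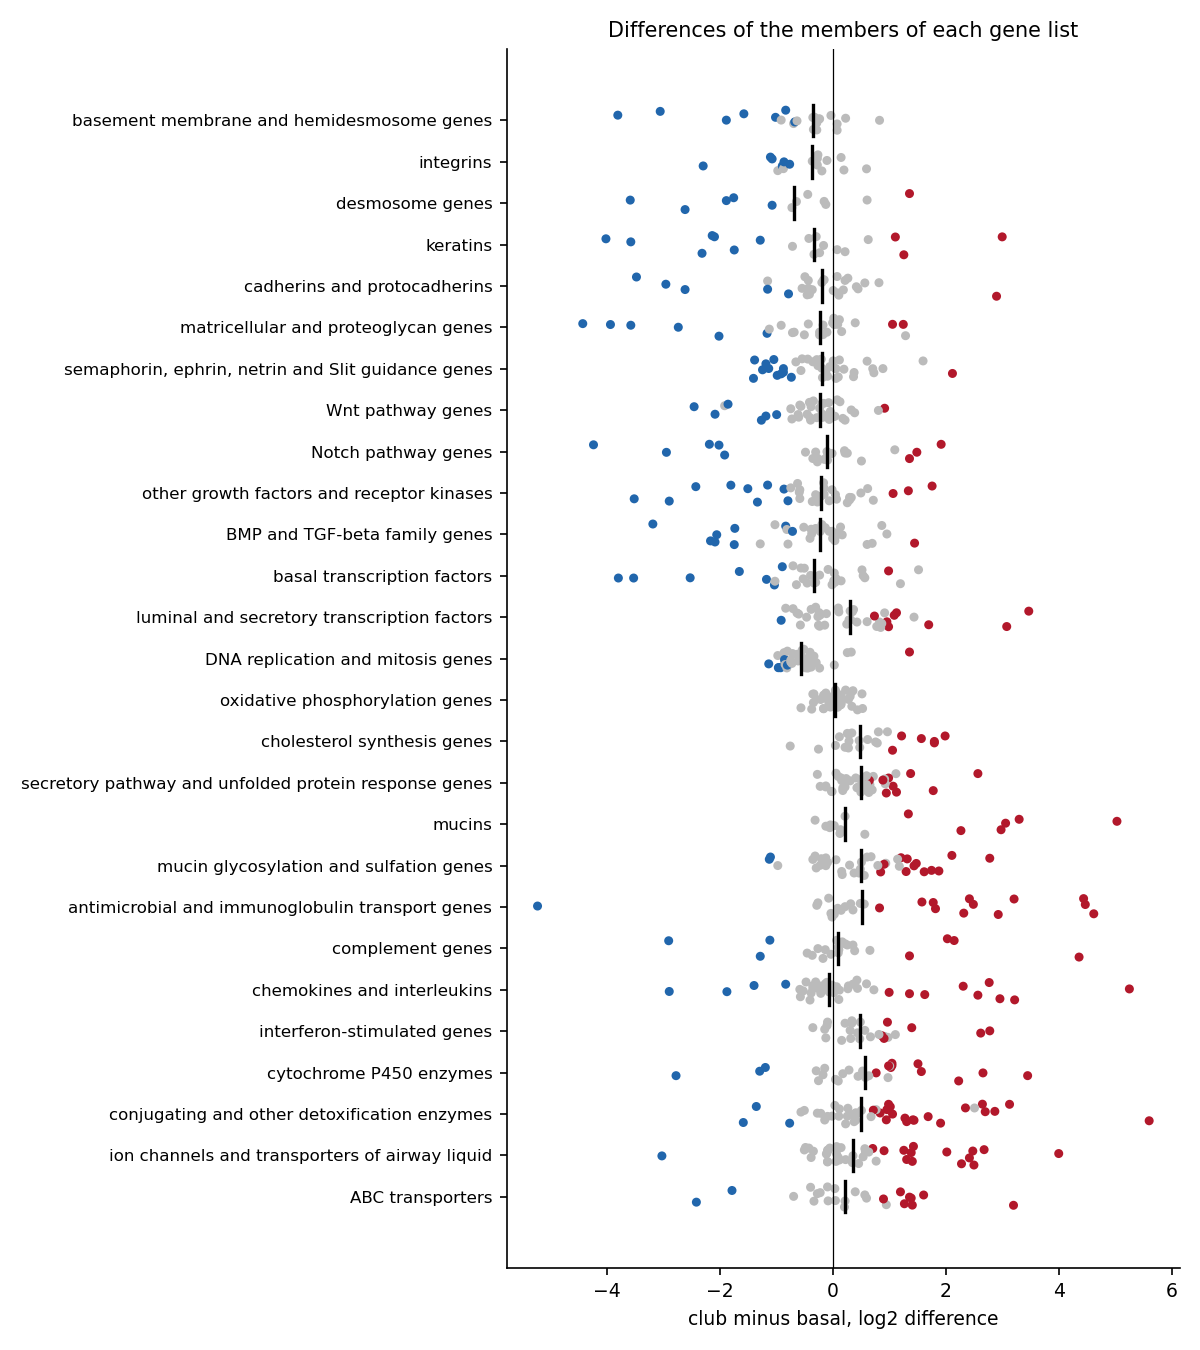
Club minus basal log2 difference (horizontal axis) of every measured member of 27 gene lists; red points rose, blue points fell, grey points were not called and black bars mark the list medians. Adhesion, matrix and signalling lists hold more members that fell, and mucin, detoxification and transport lists more that rose.

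Keratins changed on both sides. Of 19 keratins 7 fell, 3 rose and 9 were not called (median -0.33). Beside Krt5, Krt75 was at 9.20 and 9.86 in basal and at 7.12 and 7.31 in club cells, Krt14, the partner of Krt5 in basal filaments, fell by 2.13 ± 0.23, and Krt6a, a keratin of stressed epithelium, by 2.09 ± 0.26. Krt17 was at 12.18 and 12.71 against 8.23 and 9.51 and fell by 3.57 ± 0.68. Its call ended without basal replicate 2 (adjusted p = 0.066) and without club replicate 1 (adjusted p = 0.11). The keratins that rose were Krt23, at 11.88 and 12.59 in club and 9.87 and 8.61 in basal cells, and the simple-epithelial Krt18, at 13.21 and 13.65 against 12.40 and 11.94, together with Krt80. Krt18 and Krt80 lost the call without club replicate 2 (adjusted p = 0.098 and 0.14), where Krt80 differed by 0.73 in place of 1.11 ± 0.25, and Krt80 was also not called without either basal array (0.075 and 0.072) or a ciliated array (0.1). Without club replicate 1, 4 keratins fell, and without club replicate 2, 1 rose. Among 18 genes of the cornified envelope, which seals squamous epithelium, 4 fell and none rose, with 14 not called. Tgm2 and Tgm1, transglutaminases that crosslink proteins, fell by 2.66 ± 0.16 and 2.39 ± 0.22.

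Desmosomes, the spot junctions that tie keratin filaments of adjacent cells together, were lower in most called members: 5 of 12 fell, 1 rose and 6 were not called (median -0.68). Dsc3, a desmosomal cadherin, was at 9.53 and 8.13 in basal and at 5.23 and 5.28 in club cells. Pkp1, a plaque protein of stratified epithelium, was at 9.79 and 9.81 against 7.16 and 7.22. Its relative Pkp2 went the other way, at 9.64 and 9.65 in club and 8.54 and 8.03 in basal cells. The differences were -3.58 ± 0.42, -2.61 ± 0.16 and 1.36 ± 0.20, and the highest adjusted p was 0.0069. Dsc2, Dsg3 and Dsg2 fell by 1.88 ± 0.22, 1.75 ± 0.22 and 1.07 ± 0.15. Classical and related cadherins moved likewise: of 29, 5 fell, 1 rose and 23 were not called (median -0.19). P-cadherin, Cdh3, was at 9.64 and 9.80 against 6.11 and 6.39, and Cdh13 and Fat2 fell by 2.95 ± 0.18 and 2.61 ± 0.19. Cdh17, a cadherin known from intestine and liver, was at 9.35 and 9.82 in club and at 7.57 and 5.80 in basal cells (2.90 ± 0.50), with the call lost without club replicate 2 (adjusted p = 0.076). With that array left out no cadherin rose, and without club replicate 1, 3 fell. Tight and gap junction genes gave 3 that rose, 1 that fell and 20 not called of 24 (median 0.33), and 5 rose and 2 fell without basal replicate 1. The connexin gene Gjb2 rose by 1.80 ± 0.30, and Cldn10 and Cldn23 rose by 1.59 ± 0.27 and 1.22 ± 0.20, whereas Cldn1 fell by 1.99 ± 0.32. With club replicate 1 left out, Cldn10, Cldn23 and Cldn1 were no longer called (adjusted p = 0.067, 0.053 and 0.065), and without club replicate 2, Cldn10 and Cldn23 were not (0.064 and 0.073).

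Of 23 genes of the basement membrane and of hemidesmosomes, the junctions that bind its laminin, 7 fell and 16 were not called (median -0.34). Lama3, an alpha chain partner of Lamb3 in the laminin of hemidesmosomes, was at 8.06 and 7.78 in basal and at 6.02 and 6.05 in club cells, and Lamb3 was at 11.30 and 11.26 against 7.53 and 7.43. Agrn, a heparan sulfate proteoglycan, fell by 1.57 ± 0.23. Of 17 integrins, the receptors for matrix, 6 fell and 11 were not called (median -0.36). Itgb4, which anchors hemidesmosomes, was at 11.73 and 11.80 against 9.27 and 9.67, and its partner Itga6 was at 10.56 and 9.81 against 9.34 and 9.30 without passing (adjusted p = 0.083). Without either club array the integrins that fell numbered 2 and the basement membrane genes 4.

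The matrix proteins themselves gave the widest differences of this kind. Dcn, the collagen-binding proteoglycan decorin, was at 12.29 and 12.13 in basal and at 7.98 and 7.61 in club cells. Igfbp7, which binds insulin-like growth factors and matrix, was at 12.96 and 12.78 against 9.03 and 8.84. Sparc, a collagen-binding matricellular protein, was at 11.15 and 11.06 against 7.52 and 7.56. The heparan sulfate proteoglycan gene Gpc3, the fibronectin gene Fn1 and the tenascin gene Tnc fell by 2.73 ± 0.22, 2.01 ± 0.30 and 1.16 ± 0.15. In all, 6 of 27 matricellular and proteoglycan genes fell, 2 rose and 19 were not called (median -0.23). The call for Fn1 ended without club replicate 1 (adjusted p = 0.053). The 2 that rose, Ctgf and Cyr61, are targets of the Hippo pathway and also respond to stress. They were at 13.06 and 13.59 and at 13.63 and 14.05 in club cells, against 12.38 and 12.16 and against 13.03 and 12.15 in basal cells. Ctgf and Cyr61 rose by 1.06 and 1.25, and neither was called without basal replicate 2 (adjusted p = 0.072 and 0.087, where Cyr61 differed by 0.81), without club replicate 2 (0.12 and 0.21) or without a ciliated array (0.067 and 0.11), nor Cyr61 without club replicate 1 (0.09). Basal replicate 2 was low in other inducible genes, and the part of this in the result was not tested. Among 22 collagens and their crosslinking enzymes, 2 rose, 2 fell and 18 were not called, and 1 rose when an array other than basal replicate 1 was left out. The lysyl oxidases parted. Lox was at 9.71 and 10.14 in club and at 7.53 and 6.95 in basal cells (2.69 ± 0.24), and Loxl4 was at 6.01 and 6.09 in club and at 8.39 and 8.31 in basal cells (-2.30 ± 0.17). Fibrillar collagens stayed near one level, Col1a1 at 7.06 and 7.07 in basal and 6.93 and 6.88 in club cells.

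Fibroblast markers moved with the matrix genes, and only in part. Of 15, Dcn, Fbln1 and Gsn fell and 12 were not called (median -0.23), and these 3 also fell with each array left out in turn. Their mean log2 level was 6.92 and 6.98 in the basal arrays and 6.21 in both club arrays, and the log2 of their summed linear signal was 13.10 and 13.20 against 10.87 and 10.97. The defining fibroblast genes Pdgfra (6.21 in both basal arrays, 5.79 and 6.15 in club), Col1a2 (7.07 and 7.19 against 6.93 and 6.74) and Lum (3.99 and 4.05 against 4.18 and 4.11) did not pass. No detection calls were given, so none of them could be called absent, and the part of fibroblasts in the matrix results was not tested.

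The Notch pathway was divided between the cell types. Of 23 members, 5 fell, 3 rose and 15 were not called (median -0.10), and the counts without any single club or basal array were 5 and 3 or 5 and 4. The ligand gene Jag2 was at 11.02 and 11.06 in basal and at 7.10 and 6.52 in club cells. The ligand gene Dll1 was at 9.92 and 8.95 against 6.39 and 6.61. Dlk2, a non-canonical ligand, was at 9.06 and 9.58 against 7.20 and 7.08. Each ligand was thus higher in both basal arrays than in either club array, with differences of -4.23 ± 0.22, -2.94 ± 0.30 and -2.18 ± 0.21 (adjusted p at most 0.0014). Lfng, a glycosyltransferase that tunes how Notch receptors answer their ligands, fell by 2.01 ± 0.24. The receptors split: Notch1 was at 10.62 and 10.54 in basal and at 8.60 and 8.72 in club cells, whereas Notch2 was at 9.31 and 9.36 against 11.17 and 11.33. Notch3 was at 7.48 and 7.53 in basal and at 8.88 and 9.11 in club cells. Their differences were -1.91 ± 0.15, 1.92 ± 0.15 and 1.49 ± 0.17, each called under every alternative. Hes1, a target of the pathway, rose by 1.36 ± 0.21, from 10.11 and 10.05 to 11.20 and 11.69.

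**Figure D3:**
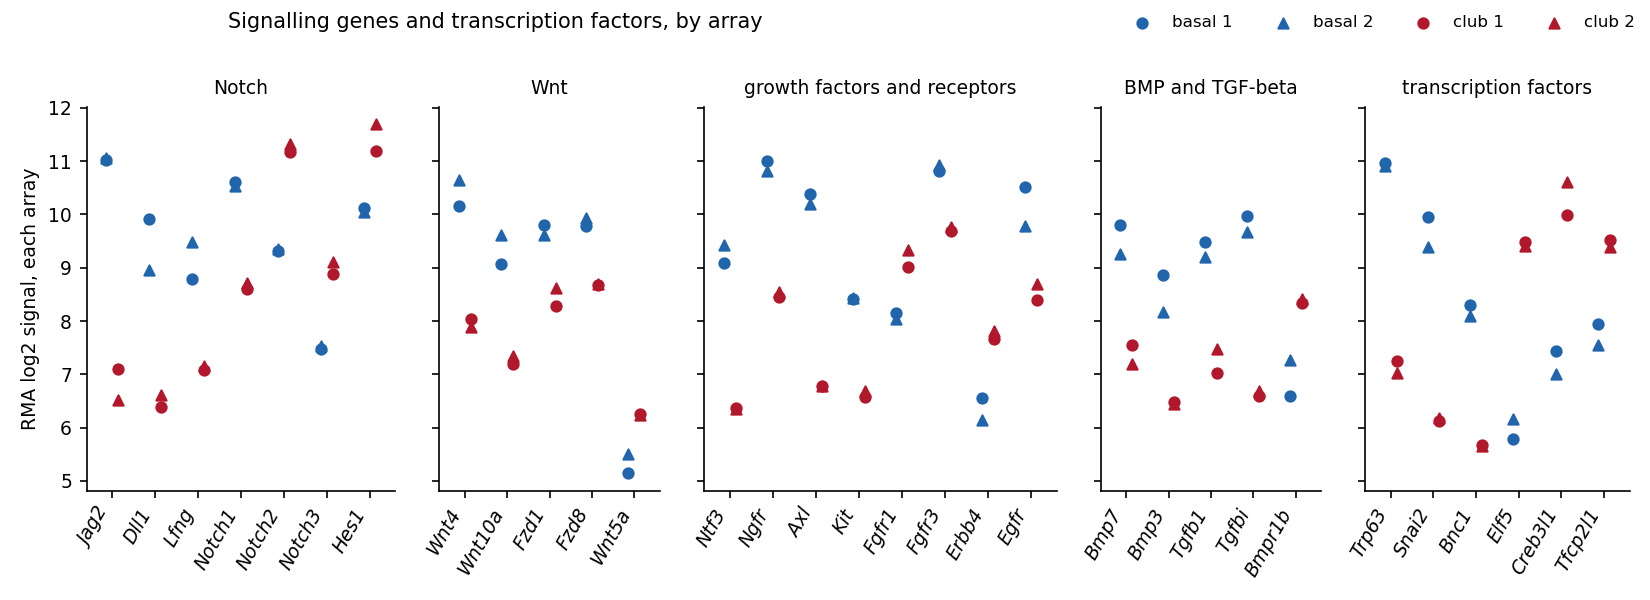
RMA log2 signal of signalling genes and transcription factors in each array (vertical axis); blue marks basal and red club cells, circles replicate 1 and triangles replicate 2. The ligands Jag2 and Dll1 and the receptor Notch1 are higher in both basal arrays, Notch2, Notch3 and Hes1 in both club arrays.

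Wnt pathway members fell more often than they rose, 6 against 1 of 41, with 34 not called (median -0.23). The ligand gene Wnt4 was at 10.17 and 10.64 in basal and at 8.04 and 7.88 in club cells, and Wnt10a was at 9.07 and 9.62 against 7.19 and 7.35. Both lay outside the club range and fell by 2.45 ± 0.19 and 2.08 ± 0.21. The receptor genes Fzd8 and Fzd1 fell by 1.18 ± 0.15 and 1.26 ± 0.19. The ligand gene Wnt5a, which signals largely without beta-catenin, was at 6.26 and 6.24 in club and at 5.14 and 5.52 in basal cells. Sfrp1, a secreted inhibitor, differed between the basal arrays themselves (10.91 and 8.26) and was not called (adjusted p = 0.18). When club replicate 1 was left out, 3 members fell, and the calls for Fzd1 and Wnt5a were lost (adjusted p = 0.056 and 0.13); that for Wnt5a was also lost without club replicate 2 (0.12) without basal replicate 1 (0.052) and without a ciliated array (0.06).

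Growth factors and receptor kinases outside the EGF family gave 9 of 35 that fell, 3 that rose and 23 that were not called (median -0.21). Axl, a receptor kinase that binds Gas6, was at 10.39 and 10.20 in basal and at 6.79 in both club arrays, and its relative Tyro3 was at 7.94 and 8.15 against 9.24 and 9.53. The neurotrophin gene Ntf3 was at 9.09 and 9.43 against 6.38 and 6.36, and the neurotrophin receptor gene Ngfr at 11.003 and 10.82 against 8.45 and 8.54. Kit, the receptor of stem cell factor, was at 8.41 and 8.44 against 6.58 and 6.68. In each of these the cell types were separate by more than the gap between replicates, with differences of -3.51 ± 0.19, 1.34 ± 0.19, -2.89 ± 0.17, -2.42 ± 0.16 and -1.80 ± 0.15. Receptors of fibroblast growth factors parted as well: Fgfr3 fell by 1.15 ± 0.16 and Fgfr1 rose by 1.07 ± 0.18, the latter not called without club replicate 2 (adjusted p = 0.083). Fgfbp1, a carrier that releases fibroblast growth factors from matrix, rose by 1.76 ± 0.24, and the platelet-derived growth factor gene Pdgfc fell by 1.33 ± 0.17. In the EGF family 3 of 16 fell, 1 rose and 12 were not called (median 0.05). The receptor gene Egfr was at 10.51 and 9.79 in basal and at 8.40 and 8.70 in club cells, while Erbb4 was at 6.55 and 6.14 against 7.66 and 7.81. Egfr lost its call without club replicate 1 (-1.60 ± 0.26 with all arrays, adjusted p = 0.072 without it), where 1 member of the family fell. Without basal replicate 1, 5 members rose.

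Members of the BMP and TGF-beta family were lower in club cells in 8 of 35 cases, higher in 1 and not called in 26 (median -0.22). The ligand genes Tgfb1 and Bmp7 were at 9.48 and 9.20 and at 9.81 and 9.26 in basal cells, against 7.03 and 7.48 and against 7.55 and 7.19 in club cells. Tgfbi, a matrix protein induced by TGF-beta, was at 9.98 and 9.67 against 6.60 and 6.69, and Ltbp4, which stores latent TGF-beta in matrix, at 11.15 and 11.53 against 7.50 and 7.60. These fell by 2.08 ± 0.23, 2.16 ± 0.23, 3.18 ± 0.17 and 3.79 ± 0.22. Bmp3 and the procollagen and chordin protease gene Bmp1 fell by 2.05 ± 0.26 and 1.74 ± 0.16. The type I receptor gene Bmpr1b rose, from 6.59 and 7.28 to 8.34 and 8.42, with the call lost without club replicate 1 or 2 (adjusted p = 0.057 and 0.068). Without club replicate 1, 5 members fell and none rose, and without basal replicate 1, 4 rose.

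Of 23 Hippo pathway genes and targets of its effector YAP, 5 fell, 3 rose and 15 were not called (median -0.11). Amotl1, which holds YAP at junctions, was at 9.73 and 9.75 in basal and at 6.54 and 6.53 in club cells. Ajuba, a LIM protein that restrains the Hippo kinases, was at 9.74 and 10.64 against 6.88 and 7.20. The classical targets Ctgf and Cyr61, described with the matrix genes, stood on the opposite side of these 2 genes. Axl, described with the receptor kinases and also a member of this list, gave its largest difference, -3.51, and was called under every alternative. The list thus held members on both sides. Without basal replicate 2, club replicate 2 or a ciliated array no member of this list rose, and without either club array 3 fell.

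Guidance molecules, best known from growing axons, were lower in club cells in 11 of 39 cases and higher in 1, with 27 not called (median -0.19). Robo2, a Slit receptor, was at 7.23 and 7.27 in basal and at 6.14 and 6.09 in club cells. Plxna1, a semaphorin receptor, was at 10.58 and 10.60 against 9.47 and 9.74, while Plxnd1, of the same family, was at 7.36 and 6.97 against 8.97 and 9.60. The plexins thus differed in opposite directions, by -0.98 ± 0.16 and 2.12 ± 0.24. The ephrin receptor gene Ephb4, the semaphorin gene Sema3e and the ephrin gene Efnb1 fell by 1.40 ± 0.23, 1.38 ± 0.24 and 1.24 ± 0.22. Fewer members were called with either club array left out, as was so over all genes. Without club replicate 1, Ephb4, Efnb1 and Plxna1 differed by -1.22, -1.04 and -0.85 and were not called. Without club replicate 2, Sema3e differed by -1.14 and was not called. The list median was -0.17 without club replicate 1 and -0.21 without club replicate 2.

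Transcription factors were listed as known from basal or from luminal cells. Of 31 basal factors 7 fell, 1 rose and 23 were not called (median -0.33). Snai2, a repressor of the Snail family, was at 9.95 and 9.38 in basal and at 6.12 and 6.18 in club cells, and Bnc1, a zinc finger protein of basal keratinocytes, at 8.29 and 8.09 against 5.68 and 5.65. They fell by 3.52 ± 0.29 and 2.52 ± 0.15. The homeobox gene Prrx2 was the member that rose (0.99 ± 0.15), and its call was lost without either club array (adjusted p = 0.059 and 0.062). Without either club array 3 members fell and none rose, and without basal replicate 1, 5 rose. Of 40 luminal and secretory factors 8 rose, 1 fell and 31 were not called (median 0.30). Elf5, an ETS factor of secretory epithelia such as the mammary gland, was at 9.49 and 9.41 in club and at 5.79 and 6.16 in basal cells. Creb3l1, a membrane-bound activator of secretory genes, was at 9.99 and 10.61 against 7.43 and 7.002. Tfcp2l1, a Grainyhead relative, was at 9.51 and 9.38 against 7.94 and 7.55. The 3 genes rose by 3.47 ± 0.19, 3.08 ± 0.24 and 1.70 ± 0.22 under every alternative. Spdef, the factor of goblet cell differentiation, was at 7.76 and 8.26 in club and 7.05 and 8.12 in basal cells, which overlap, and was not called (adjusted p = 0.56). Without club replicate 2, 3 luminal factors rose.

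Of 20 genes induced within minutes by growth and stress signals 2 rose, none fell and 18 were not called (median 0.59). The difference was positive in 19, both club arrays lay above both basal arrays in 9 (20.6% over all genes), and 8 had an unadjusted p under 0.05. Btg2 rose by 1.24 ± 0.21 and Mafk by 1.01 ± 0.18. Myc, the 1 member with a negative difference, was at 12.36 and 10.85 in basal and at 9.62 and 10.34 in club cells (adjusted p = 0.11). In 6 of the 20 genes basal replicate 1 exceeded basal replicate 2 by more than 1 unit, and in none was it the reverse. With basal replicate 1 left out, 9 members rose, without club replicate 2 none did, and without basal replicate 2, 2 rose and 1 fell. The call for Btg2 ended without either club array (adjusted p = 0.071 and 0.069), and that for Mafk without basal replicate 2 (0.054), club replicate 2 (0.11) or a ciliated array (0.053).

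Of 42 DNA replication and mitosis genes 7 fell, 1 rose and 34 were not called (median -0.57). Mki67, an antigen of dividing cells, was at 8.28 and 8.04 in basal and at 7.43 and 6.97 in club cells, and Top2a, which untangles replicated DNA, at 6.78 and 6.82 against 5.92 and 5.98. Fewer members fell without club replicate 2 and more without basal replicate 1, and the calls over all genes shifted in the same way. The list median was -0.57 without club replicate 2 and -0.62 without basal replicate 1. At an unadjusted p under 0.05 the limma fit of all arrays gave 26 members in either direction. Mki67 was not called without basal replicate 1, club replicate 2 or a ciliated array (adjusted p = 0.069, 0.18 and 0.077), nor Top2a without either club array (0.097 and 0.075). The kinase gene Cdk6 was the member that rose (1.36 ± 0.23), and it was not called without either club array (adjusted p = 0.079 and 0.059). Sesn1, a stress-induced sestrin and the only cell cycle inhibitor of 21 that fell, was at 9.38 and 9.91 in basal and at 7.61 and 7.66 in club cells.

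On the club side, mucins rose as transmembrane as well as secreted forms. Of 15 mucins 6 rose and 9 were not called (median 0.22), and 5 to 7 rose without single basal or club arrays. The transmembrane mucin Muc16 was at 10.83 and 10.68 in club and at 7.33 and 7.58 in basal cells. Muc4 was at 10.85 and 10.99 against 7.71 and 8.01. Muc20 was at 9.62 and 10.11 against 6.79 and 6.98. These membrane-bound mucins line the airway surface, and each was higher in both club arrays, by 3.30 ± 0.17, 3.06 ± 0.17 and 2.98 ± 0.21. Among secreted mucins, Muc5b was at 13.26 and 13.68 against 7.73 and 9.14, so the basal arrays were over 1 unit apart. Of 19 secretoglobins and BPI-fold genes 5 rose and 14 were not called (median 0.05). Bpifb5 was at 8.60 and 8.81 in club and at 6.50 in both basal arrays. Bpifb1, an antibacterial protein of airway secretions, was at 13.74 and 13.98 in club but at 7.33 and 10.57 in basal cells. Its difference of 4.91 ± 0.88 (adjusted p = 0.016) was not called without a ciliated array (adjusted p = 0.054) or without either club array (0.067 and 0.076). With club replicate 1 left out, 2 members of that list rose.

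Enzymes that build mucin sugars rose in 12 of 39 cases, fell in 2 and were not called in 25 (median 0.51). Fut2, a fucosyltransferase of secretor antigens, was at 8.61 and 9.09 in club and at 6.56 and 6.91 in basal cells. Galnt5, which starts O-linked chains, was at 9.06 and 9.02 against 7.16 and 7.14, and Galnt3 rose by 1.32 ± 0.15. The sialyltransferase genes St6gal1 and St3gal6 rose by 1.75 ± 0.25 and 1.48 ± 0.17, and the galactosyltransferase gene B4galt4 by 1.62 ± 0.21. Fut9, whose product makes the SSEA1 epitope of the club gate, belongs to the list, and it was at 7.68 and 7.23 against 4.75 and 4.62. Ggta1, which makes the epitope of the basal gate, was at 6.33 and 6.25 in club and at 9.34 and 8.92 in basal cells. These 2 genes bear on the sort and are no finding. When club replicate 1 was left out, 8 enzymes of the list rose and none fell.

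Antimicrobial proteins rose in 12 of 26 cases, and the 1 that fell gave the largest fall of all genes. Defb1, a beta-defensin, was at 10.77 and 11.29 in basal and at 5.98 and 5.64 in club cells, a difference of -5.22 ± 0.23. Lcn2, which binds bacterial siderophores, was at 11.02 and 11.83 in club and at 7.19 and 6.72 in basal cells. Pglyrp1, a peptidoglycan-binding protein, was at 13.34 and 13.54 against 10.49 and 11.41. Reg3g, a bactericidal lectin, was at 14.14 and 14.02 against 12.09 and 12.43. The club arrays were above the basal arrays in these 3, and the list median was 0.52 with 13 genes not called. Dmbt1, a scavenger receptor of mucosal fluid, was at 12.33 and 12.71 in club but at 9.60 and 6.56 in basal cells. Its difference fell from 4.44 ± 0.84 to 2.92 without basal replicate 2, and it was not called without a ciliated array (adjusted p = 0.061) or without either club array (0.075 and 0.094). The lactoferrin gene Ltf was at 12.95 and 13.35 against 9.52 and 10.93 (2.93 ± 0.50) and was not called without club replicate 1 or 2 (adjusted p = 0.051 and 0.075). Without club replicate 1, 8 members of the list rose. Lyz1 and Lyz2, lysozyme genes so alike that probes may read both, rose by 3.57 ± 0.26 and 2.32 ± 0.31.

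Of 23 complement genes 4 rose, 3 fell and 16 were not called (median 0.10). Cfb, the protease subunit of the alternative pathway, was at 10.78 and 11.52 in club and at 6.68 and 6.91 in basal cells. Clu, which blocks the terminal complex, was at 10.53 and 10.88 against 8.68 and 8.44. C3, the central component, rose by 1.36 ± 0.28 and was not called without basal replicate 2 (adjusted p = 0.09) or without club replicate 1 or 2 (0.083 and 0.15). C1qb, a macrophage product, was at 8.67 and 8.40 in basal and at 5.70 and 5.57 in club cells. The other C1q subunit genes, C1qa and C1qc, fell by 1.11 and 1.28, and C1qa was not called without either club array (adjusted p = 0.072 and 0.078), nor C1qc without club replicate 2 (0.068). The counts without club replicate 2 were 3 up and 1 down.

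Leukocyte markers stood beside these falls. Of 18, 4 fell, 1 rose and 13 were not called (median -0.33), and their mean level was 7.02 and 6.87 in the basal and 6.57 and 6.51 in the club arrays. The log2 of their summed linear signal was 12.46 and 12.60 in the basal and 13.95 and 13.89 in the club arrays. Such a sum gives most weight to members of high signal. The difference was negative in 15 members and positive in 3, and Lyz2 was the only one that rose. Laptm5, a lysosomal protein of blood cells, was at 7.45 and 7.36 in basal and at 5.86 and 6.09 in club cells. Class II genes of the major histocompatibility complex, which present antigen, fell in the same direction: H2-Aa was at 9.20 and 8.28 against 5.77 and 5.39, and H2-Ab1 at 8.9975 and 8.90 against 6.18 and 6.48. In the list of 19 antigen presentation genes 4 fell, all of class II or its chain Cd74, and 15 were not called (median -0.07). The defining leukocyte gene Ptprc lay at 5.68 and 5.30 in basal and 5.19 and 5.17 in club cells and did not pass (adjusted p = 0.38). Lyz2, in the leukocyte list too, went the other way. Without either club array 2 leukocyte markers fell, and Cd74 was not called without club replicate 1 (-2.89 ± 0.45 with all arrays, adjusted p = 0.053 without it). The part of leukocytes in the C1q and class II results was not tested.

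Chemokines and cytokines changed on both sides, 9 up, 4 down and 32 not called of 45 (median -0.07). Ccl28, a mucosal chemokine for antibody-secreting cells, was at 9.41 and 9.53 in club and at 6.25 and 6.76 in basal cells. Cxcl17, a chemokine of mucosal surfaces, was at 12.19 and 12.18 against 9.07 and 9.76. Cxcl5, which attracts neutrophils, was at 7.53 and 9.25 against 5.40 and 4.95, so the club arrays themselves were apart. These rose by 2.96 ± 0.22, 2.77 ± 0.25 and 3.22 ± 0.49. The alarmin gene Il33 rose by 2.57 ± 0.21, and Cxcl2 and Cxcl1, neighbours of Cxcl15 on the chromosome, by 2.31 ± 0.36 and 1.36 ± 0.25. Il1r2, a decoy receptor, was at 7.93 and 8.24 in basal and at 5.12 and 5.26 in club cells, and its ligand gene Il1b at 7.49 and 6.74 against 5.18 and 5.31. Ackr3, a scavenging chemokine receptor, fell by 1.39 ± 0.17. With club replicate 1 left out the calls for Cxcl1 and Cxcl2 were lost (adjusted p = 0.062 and 0.056), and that for Cxcl1 also without club replicate 2 (0.11) or a ciliated array (0.057). Among 28 Toll-like receptor and tumour necrosis factor genes 3 rose, 1 fell and 24 were not called (median -0.04). Tnfaip2 was at 9.32 and 10.004 in club and at 6.50 and 6.68 in basal cells. Without club replicate 2, 1 of that list rose.

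Interferon-stimulated genes rose in 6 of 26 cases, with none lower and 20 not called (median 0.49). Oas2, a sensor of double-stranded RNA, was at 9.39 and 9.33 in club and at 6.55 and 6.61 in basal cells. Ifi44 was at 11.71 and 11.17 against 9.02 and 8.62. Both were separate between the cell types and rose by 2.78 ± 0.15 and 2.62 ± 0.24. Irf7, the regulator of type I interferon, rose by 1.40 ± 0.30 and was not called without basal replicate 2 (adjusted p = 0.095), without a ciliated array (0.063) or without club replicate 2 (0.13), where 3 members of the list rose.

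Of 12 surfactant and lamellar body genes 6 rose and 6 were not called (median 0.51). Sftpb, a hydrophobic surfactant protein, was at 10.39 and 10.98 in club and at 7.85 and 7.89 in basal cells. The collectin gene Sftpd was at 11.06 and 11.83 against 8.64 and 9.05. Sftpc, the surfactant protein of alveolar type 2 cells, was at 5.27 and 5.47 against 5.21 and 5.27 and was not called (adjusted p = 0.82), and Lamp3, another gene of those cells, was at 3.98 and 3.87 against 3.93 and 4.23. The phosphate transporter gene Slc34a2 was at 7.83 and 9.05 against 5.86 in both basal arrays. As a list, alveolar type 2 markers averaged 8.38 and 8.86 in the club and 7.27 and 7.33 in the basal arrays, with 6 of 11 higher (median 0.90), among them Sftpb, Sftpd and Slc34a2, and the log2 of their summed linear signal was 13.69 and 14.24 against 11.45 and 11.52. The part of alveolar cells in this was not tested.

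Drug-metabolising enzymes rose in number but not without exception. Of 27 cytochromes P450 and their partners 10 rose, 3 fell and 14 were not called (median 0.58). Cyp4f15, of a fatty acid and eicosanoid hydroxylase family, was at 10.04 and 10.64 in club and at 6.52 and 7.25 in basal cells. Cyp2b10 was at 12.84 and 12.83 against 10.50 and 10.72, and Cyp2s1 at 8.27 and 8.50 in club against 10.98 and 11.31 in basal cells. Cyp39a1, an oxysterol hydroxylase, rose by 1.51 ± 0.16. Cyp2f2, the naphthalene-activating enzyme of mouse club cells, was at 14.54 and 14.43 against 14.40 and 14.20, and the 95% interval of its difference was -0.18 to 0.55. Among 45 conjugating and other detoxifying enzymes 19 rose, 3 fell and 23 were not called (median 0.51). Beside Sult1c1, Sult1c2 was at 8.31 and 8.56 against 5.44 and 5.16, and its sequence resembles that of Sult1c1. Mgst1, a membrane glutathione transferase, was at 12.07 and 12.10 against 9.63 and 9.84. The esterase Ces1f was at 10.46 and 10.04 in club and at 6.93 and 7.84 in basal cells, the opposite of the carboxylesterase run described above. When club replicate 1 was left out, 7 cytochromes and 8 conjugating enzymes rose, and without club replicate 2 these counts were 7 and 9.

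The antioxidant and glutathione list went both ways, with 6 genes that rose, 5 that fell and 26 not called of 37 (median 0.30). It also holds genes for making oxidants, among them Duox1 and Duoxa1, so its falls are not all of antioxidant genes. Duox1, an oxidase that releases hydrogen peroxide at the airway surface, was at 7.53 and 7.65 in basal and at 5.76 and 5.58 in club cells. Its maturation factor gene Duoxa1 was at 8.39 and 8.76 against 6.27 and 6.15. The metallothionein gene Mt2, a metal-binding protein, was at 13.17 and 13.29 against 11.71 and 11.86. They fell by 1.92 ± 0.16, 2.37 ± 0.18 and 1.45 ± 0.17. Srxn1, which repairs peroxiredoxins, rose by 1.33 ± 0.20. Slc7a11, the cystine importer, was at 8.19 and 9.26 against 6.79 and 5.30 and was not called without a ciliated array (adjusted p = 0.064) or club replicate 2 (0.094). With club replicate 2 left out, 1 antioxidant gene rose. Of 30 aldehyde dehydrogenase and retinoid genes 6 rose, 3 fell and 21 were not called (median 0.11). The plasma retinol carrier gene Rbp4 was at 10.33 and 10.78 in club and at 7.87 and 8.03 in basal cells. Rdh10, which begins retinoic acid synthesis, rose by 1.83 ± 0.27. Without club replicate 1, 1 gene of this list fell.

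Ion and water transport genes rose in 14 of 42 cases, fell in 1 and were not called in 27 (median 0.35). The beta and gamma subunits of the epithelial sodium channel, Scnn1b and Scnn1g, were at 8.45 and 8.59 and at 8.17 and 8.38 in club cells, against 6.01 and 6.47 and against 6.69 and 7.08 in basal cells. The amino acid transporter gene Slc6a14 was at 10.60 and 10.84 against 7.35 and 6.09. Slc4a5, a bicarbonate cotransporter outside the list, was at 9.81 and 10.35 against 6.32 and 5.55. These genes rose by 2.28 ± 0.20, 1.39 ± 0.19, 3.999 ± 0.37 and 4.15 ± 0.29. Aqp3, a water and glycerol channel of basal cells, was the member that fell, from 12.55 and 12.62 to 9.66 and 9.47. Cftr, the chloride channel mutated in cystic fibrosis, was at 5.63 and 5.31 in club and at 4.94 and 5.07 in basal cells and was not called (adjusted p = 0.26). With club replicate 1 left out, 8 of the list rose, and without club replicate 2, 7.

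Of 25 ABC transporters 8 rose, 2 fell and 15 were not called (median 0.22). Abca1 and Abcg1, which export cholesterol, were at 10.23 and 9.26 and at 8.65 and 8.62 in basal cells, against 7.43 and 7.23 and against 6.96 and 6.74 in club cells. Abca13 was at 8.85 and 8.80 in club and at 5.67 and 5.58 in basal cells. Abcc4 and Abcc1, exporters of organic anions, rose by 1.61 ± 0.18 and 1.39 ± 0.17. Without club replicate 2, 4 of the list rose. Cholesterol synthesis genes rose in 6 of 23 cases, with none lower and 17 not called (median 0.48). Insig1, the sterol sensor partner, was at 10.78 and 10.99 in club and at 9.20 and 8.59 in basal cells, and Sqle, which makes the first oxygenated intermediate, at 9.22 and 8.74 against 7.17 and 7.19. Cyp51, a demethylase of the pathway, rose by 1.57 ± 0.16. Without club replicate 2, 3 of that list rose.

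Fatty acid and eicosanoid enzymes were divided evenly, 5 up and 5 down of 37, with 27 not called (median -0.07). The desaturase genes Fads2 and Fads1, which make long polyunsaturated fatty acids, were at 11.24 and 11.58 and at 10.96 in both arrays in basal cells, against 7.79 and 7.78 and against 8.36 and 8.68 in club cells. Ptgs1, the constitutive cyclooxygenase, was at 9.50 and 9.20 against 7.22 and 7.26. They fell by 3.62 ± 0.18, 2.44 ± 0.19 and 2.11 ± 0.22. Cd36, a fatty acid uptake receptor, was at 12.73 and 12.58 in club and at 9.19 and 9.22 in basal cells. Alox15, a lipoxygenase, was at 10.83 and 11.54 against 6.57 and 7.998. Acsl1, which activates fatty acids, and the elongase gene Elovl5 rose by 1.86 ± 0.15 and 1.33 ± 0.17, while another elongase gene, Elovl7, fell by 1.90 ± 0.18. The counts were 4 to 6 in either direction without single basal or club arrays.

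Of 41 genes of the secretory pathway and the unfolded protein response 9 rose and 32 were not called (median 0.50). Kdelr3, which returns chaperones to the endoplasmic reticulum, was at 9.76 and 9.68 in club and at 6.67 and 7.62 in basal cells. Sec24d and Copb2, coat proteins of transport vesicles, rose by 1.78 ± 0.19 and 1.13 ± 0.15. When club replicate 1 was left out, 3 of these genes rose, and without club replicate 2, 4. Of 37 Rab, vesicle fusion and granule genes 5 rose, 2 fell and 30 were not called (median 0.21). The vesicle motor genes Myo5c and Myo5b were at 10.39 and 10.46 and at 9.47 and 9.41 in club cells, against 8.76 and 8.60 and against 8.14 and 8.02 in basal cells. Marcks, a membrane-bound substrate of protein kinase C, was at 5.78 and 5.83 in club and at 8.75 and 8.07 in basal cells, the largest fall of that list (-2.60 ± 0.24). Without club replicate 1, 2 of that list rose, and without either of basal replicate 2 and club replicate 2, 3 rose.

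Protease systems were likewise split. Of 39 serine proteases and inhibitors 7 rose, 4 fell and 28 were not called (median 0.16). Plat, the tissue plasminogen activator, was at 10.07 and 10.47 in club and at 7.04 and 6.22 in basal cells, and Serpinf1, a secreted serpin, at 9.68 and 9.997 against 6.74 and 6.80. Tmprss11a, a membrane-bound protease, was at 5.55 and 5.48 in club and at 8.73 and 7.74 in basal cells. Their differences were 3.64 ± 0.28, 3.07 ± 0.24 and -2.72 ± 0.33. Without basal replicate 2, 10 members fell, and without club replicate 2, 4 rose and 2 fell. Of 29 metalloproteases and their inhibitors 2 fell, none rose and 27 were not called (median -0.05); without either club array none was called, and without basal replicate 1, 3 rose and 3 fell.

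The cytoskeleton and its membrane partners were mostly lower where they were called. Of 38 contractile and actin genes 7 fell, 1 rose and 30 were not called (median -0.09). Cav1, which coats caveolae, was at 11.15 and 12.01 in basal and at 8.39 and 7.93 in club cells, and Cav2, of the same family, fell by 1.68 ± 0.22. Fscn1, an actin bundler, fell by 1.94 ± 0.23. The LIM protein gene Fhl2 was the member that rose, at 9.96 and 10.10 in club against 8.27 and 6.48 in basal cells, and was not called without a ciliated array (adjusted p = 0.061) or without either club array (0.075 and 0.084), while without basal replicate 2 its difference was 1.76 in place of 2.66. Without either club array, 3 members fell and none rose, and without basal replicate 1, 6 rose. Acta2, a smooth muscle gene of myoepithelial cells, overlapped between the cell types (8.05 and 6.79 in basal, 7.69 and 8.48 in club cells). Mylk, the myosin light chain kinase gene, fell by 0.75. Of 10 myoepithelial markers, both club arrays lay above both basal arrays in 1 and below them in 2. Of 33 tetraspanins and related proteins 4 fell, 3 rose and 26 were not called (median -0.09). Tspan15, which guides the protease ADAM10, was at 9.76 and 10.07 in basal and at 7.32 and 7.08 in club cells, and Tspan13 at 9.15 and 9.48 against 11.51 and 11.66. Of 28 S100 proteins and annexins 4 fell, 2 rose and 22 were not called (median -0.04). S100a10 and Anxa8 fell by 1.83 ± 0.18 and 1.69 ± 0.20, and Anxa10 rose by 1.61 ± 0.17. Without club replicate 2, 2 tetraspanins and 2 S100 or annexin genes fell, and without club replicate 1, 5 tetraspanins rose.

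None of 42 oxidative phosphorylation genes was called by limma, and 0 had an unadjusted p under 0.05 (median 0.05), and their differences ran from -0.56 to 0.53. The gaps between the basal arrays were of like size, with a median of -0.49 for replicate 1 minus replicate 2 over these genes. Sdha, a subunit of succinate dehydrogenase, was at 10.16 and 10.73 in club and at 9.81 and 10.05 in basal cells (adjusted p = 0.26). Of 19 glycolysis genes 1 rose and 18 were not called (median 0.09). That gene was Aldoc, an aldolase, at 9.61 and 10.25 in club and at 7.48 and 7.42 in basal cells (2.48 ± 0.23). Of 27 cytosolic ribosomal protein genes 2 fell and 25 were not called, with a list median of -0.45. Both club arrays lay below both basal arrays in 25 of the 27 (30.9% over all genes). None fell without basal replicate 2 or without either club array, and up to 8 fell under the other alternatives. Rpsa fell by 0.80 ± 0.19, and it was not called without any 1 of the 6 arrays (adjusted p from 0.054 to 0.21).

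Among the 405 genes with the highest mean signal, the top 2%, 50 rose and 11 fell (15.1% called), and for 223 the 95% interval of the difference lay within 1 unit of 0. Nupr1, a stress-responsive chromatin protein, was at 12.96 and 13.45 in club and at 9.35 and 9.84 in basal cells. Cyp4a12b was at 13.61 and 13.58 against 11.01 and 10.49, and a close relative in the same family, Cyp4a12a, also rose, so that probes may read both. Dapl1, a marker of basal cells, was at 13.28 and 13.27 in basal and at 10.91 and 9.72 in club cells. Emp2 and Glul, the glutamine synthetase gene, fell by 0.90 ± 0.16 and 0.92 ± 0.16, and both lost the call without either club array (adjusted p = 0.091 and 0.093, and 0.1 and 0.07). Genes with high signal and small differences included the carbonyl reductase gene Cbr2, at 14.26 and 14.37 in club and 14.23 and 14.16 in basal cells, and the secreted Bpifa1, at 14.50 and 14.39 against 13.92 and 13.999. The 95% intervals of their differences were -0.23 to 0.47 and 0.09 to 0.88. Signals near the top of the scale may be compressed, and this was not tested.

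**Figure D4:**
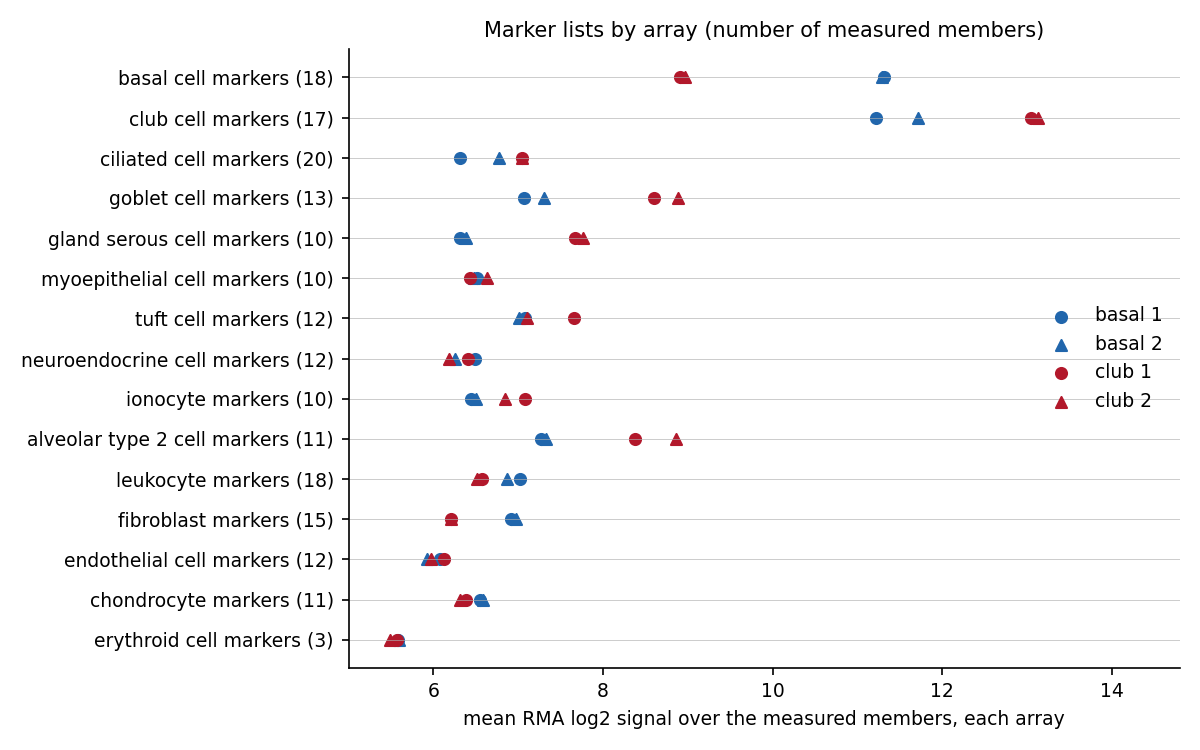
Mean RMA log2 signal of the measured members of each cell type marker list (their number in parentheses) in each array (horizontal axis); blue marks basal and red club cells, circles replicate 1 and triangles replicate 2. Basal markers lie at 11.31 and 11.29 in the basal and 8.91 and 8.97 in the club arrays; tuft cell markers lie at 7.66 in club replicate 1 and at 7.01 to 7.11 in the other arrays.

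Markers of further cell types that a sort could hold were measured as well. Ciliated cell markers averaged 6.31 and 6.77 in the basal and 7.05 in both club arrays. Of 20, 2 rose and 18 were not called (median 0.54), and 7 rose without basal replicate 2, 1 without basal replicate 1 (where 1 also fell), club replicate 1 or a ciliated array, and none without club replicate 2. Foxj1, the factor of motile cilia, was at 7.63 and 7.84 in basal and at 7.80 and 7.89 in club cells (adjusted p = 0.85), while Tppp3 was at 12.34 in basal replicate 2 and at 10.51 to 10.74 in the others. Of 13 goblet cell markers 8 rose and 5 were not called (median 1.09), and 5 rose without club replicate 2. Muc5ac, the inducible goblet cell mucin, was at 8.11 and 8.71 against 6.18 and 6.09, and the trefoil factor gene Tff2 at 9.56 and 10.18 against 7.09 and 7.32. Of 10 gland serous markers 4 rose and 6 were not called, and 2 rose without either club array. Of 10 ionocyte markers 2 rose: the proton pump subunit gene Atp6v1b1, at 11.43 and 11.59 against 9.33 and 9.09, and Ascl3, while the ionocyte factor Foxi1 was at 5.73 and 5.96 against 6.11 and 6.46 and not called (adjusted p = 0.23). Ascl3 was not called without a ciliated array (adjusted p = 0.055) or club replicate 1 (0.09). Of 12 tuft cell markers 1 rose and 11 were not called, while none rose without club replicate 1, basal replicate 1 or a ciliated array and 2 did without club replicate 2. Endothelial, neuroendocrine, chondrocyte and erythroid lists of 12, 12, 11 and 3 measured genes had no member called, and of 10 myoepithelial markers 1 fell; without basal replicate 1, 1 fell and 1 rose, and without any other array none was called. At an unadjusted limma p under 0.05 the endothelial list had 2 members, the neuroendocrine list 0, the chondrocyte list 1 and the erythroid list 1. Without basal replicate 1, 1 endothelial marker rose and 1 fell, and without club replicate 2, 1 rose. The part of other cell types in the results above was not tested.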

How the data were processed

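The arrays held biotin-labelled RNA that was extracted with Trizol, per the labels' protocols. The authors deposited log2 values made with RMA, per the submitters' processing notes, as a table with 1 aggregate value per gene symbol and array and as a probe set matrix. Not given in the sources used here: array platform, genome build, RMA version and the rule of aggregation. Of the values per gene, 100% equalled the value of a probe set on the same array. For 236 genes the arrays took different probe sets, so their differences may compare unlike probes. Without these genes 1614 genes were called. The deposited table also holds z-scores per cell type, a score the authors computed over the same arrays, which entered no test. Another 18 columns belong to no sample of the series and were not used.

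Here a linear model of cell type means was run over the 20315 genes and 6 arrays in limma 3.58.1 (R 4.3.3) with empirical Bayes moderation and Benjamini-Hochberg adjustment over all genes. The fit was tested on simulated data. Python 3.11.15 with pandas 2.3.3 and matplotlib 3.10.9 made the summaries and figures. The number of arrays limits the precision, and there are no detection calls. The rule for named genes took the 25 largest called differences in each direction, the 6 largest of each of 66 lists, 10 genes of high signal and the cell type markers; the rest were picked by their values. The lists and comparisons were chosen with earlier results of these data known. Alternatives for single genes were fits of 4 arrays, a replicate block, other normalizations, a filter on dim genes, other moderation and array weights. Each array was also left out, as were the genes whose arrays took different probe sets. A fit of all probe sets gave total counts only. Same-numbered arrays of basal and club cells, the types compared here, deviated together with r of 0.26. The value was 0.26 for ciliated and club cells and 0.05 for basal and ciliated cells. It was not over 0.1 in every pair, so the numbers were not taken as pairs.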

Additional observations from a re-analysis of the deposited data

How the results depend on the processing

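With all arrays 1629 genes were called, 884 higher and 745 lower in club cells, and 1131 of them differed at least 2-fold. With only the 4 club and basal arrays the counts were 1050, 578 and 472. Leaving out 1 array at a time gave 783 to 2534 genes called, 470 to 1281 higher, 313 to 1253 lower and 783 to 1702 with at least a 2-fold difference. At 1 ciliated array the spread rests on the basal and club arrays, since a lone array adds no residual. Of 35556 probe sets 2.94% were called, against 8.02% of genes. No single gene was followed in that fit, so it is not among the alternatives for which kept calls are stated. With the replicate number as a block, which the pairing check did not bear out in every pair of cell types, 2024 genes were called, 1623 of them shared. Centring each array on its median made 63% of calls higher in club cells, against 54.3%. Of 361 followed genes with a call, 223 kept it under every alternative tried and none reversed; the calls ended numbered 112 without either club array, 58 without a ciliated array or with only the 4 arrays, 41 without basal replicate 2 and 19 without basal replicate 1. The counts of list members under these alternatives were added after seeing the data. The cause of these shifts was not tested.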
